A study of Mus musculus with 3 samples.

Results

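A set of 10 genes that carry cholesterol out of cells and remodel lipoproteins was examined in mouse liver: the ABC transporter genes Abca1, Abcg1, Abcg5 and Abcg8, the HDL receptor gene Scarb1, the plasma enzyme and transfer protein genes Lcat, Lipc and Pltp, and the lipoprotein assembly genes Mttp and Soat2. They were taken by symbol, and all 10 were found among the 41799 genes of the deposited tables. RNA sequencing had been done on 1 liver library from each of 3 groups of male C57BL/6 mice aged 14 weeks. The HFD+DfCS-Ib group received a high-fat diet and DfCS-Ib at 40 mg/kg by oral gavage in 0.3 ml of distilled water; in the series text the treatment is a sulfated oligosaccharide, known here by that code name only. The HFD group received the high-fat diet, and the chow group regular chow. Whether HFD and chow mice were given gavage of water, how long the diets lasted, and how many of the 8 mice per group gave RNA to a library are not stated in the labels. The labels mention 5 groups and describe 3.

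With 1 library per group there is no replicate error and no test between conditions. Every difference below is one between libraries, and the ranges in parentheses are 95% exact intervals that cover counting error only. The libraries held 10969699 counts for HFD+DfCS-Ib, 12279537 for HFD and 11028671 for chow. Levels are given as CPM, the count scaled to a common library size with TMM factors; a fold is the ratio of scaled counts; a log2 ratio is taken on CPM plus 1. A gene was counted as higher or lower where that log2 ratio reached 1.5-fold or, by a stricter rule, 2-fold, among the 13153 genes that averaged 1 CPM or more, a filter all 10 genes passed. Of 12 hepatocyte markers, 11 were measured at that level, and Asgr1 was listed at 0 in every library. In whole liver, fewer cells of a type and less RNA per cell cannot be told apart.

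Cholesterol leaves a cell through ABC transporters. ABCA1 loads lipid onto apolipoprotein A-I to start an HDL particle, ABCG1 passes cholesterol to HDL that already exists, and ABCG5 with ABCG8 form a heterodimer that moves sterols from hepatocytes into bile. In plasma, LCAT esterifies HDL cholesterol, PLTP moves phospholipid between lipoproteins, and hepatic lipase, the product of Lipc, hydrolyses HDL and remnant lipids before SR-BI, the product of Scarb1, takes up the cholesteryl ester. Inside the hepatocyte, MTTP lipidates apolipoprotein B, and SOAT2 makes cholesteryl ester for the particle core. Several of these genes are classic targets of the oxysterol receptor LXR, Abca1, Abcg1, Abcg5, Abcg8 and Pltp among them.

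Promoter sequences were available for 7 of the 10 genes (RefSeq, GRCm38.p6, the assembly also called mm10), each window running from 250 bases before to 50 after a start site. Those of Scarb1, Soat2 and Abcg1 were not used here. The Abcg5 start site and 1 Abcg8 start site lie head to head on chromosome 17, 110 bases apart. They are at 84683011 on the minus strand and 84683121 on the plus strand. The stretch common to both windows has 209 bases. It is shown because the genes share it. The windows of Pltp and Lipc are shown because these genes differed most between the HFD and chow libraries among those with a window. Capitals mark the TATA box in the form TATAAA, the GATA box in the form GATAAG and the CCAAT box, each on either strand.
Abcg5 and Abcg8, chr17:84682962-84683170, plus strand: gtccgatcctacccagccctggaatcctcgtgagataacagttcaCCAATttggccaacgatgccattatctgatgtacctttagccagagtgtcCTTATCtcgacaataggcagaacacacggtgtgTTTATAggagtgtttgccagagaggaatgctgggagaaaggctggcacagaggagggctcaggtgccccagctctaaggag
Pltp, chr2:164857659-164857958, minus strand: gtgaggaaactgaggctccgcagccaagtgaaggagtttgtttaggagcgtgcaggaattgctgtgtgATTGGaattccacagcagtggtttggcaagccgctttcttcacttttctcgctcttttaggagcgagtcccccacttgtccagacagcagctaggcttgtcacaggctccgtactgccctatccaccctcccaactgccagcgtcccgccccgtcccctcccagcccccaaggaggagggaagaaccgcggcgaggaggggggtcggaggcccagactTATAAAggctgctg
Lipc, chr9:70952172-70952471, minus strand: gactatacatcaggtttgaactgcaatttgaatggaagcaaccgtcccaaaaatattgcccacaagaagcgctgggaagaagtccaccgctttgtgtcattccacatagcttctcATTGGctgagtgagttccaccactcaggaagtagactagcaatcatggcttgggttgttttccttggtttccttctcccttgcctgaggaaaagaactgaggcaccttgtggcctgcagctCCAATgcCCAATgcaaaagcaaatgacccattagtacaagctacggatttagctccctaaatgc
The shared stretch holds 1 TATAAA, 1 GATAAG and 1 CCAAT match, the Pltp window 1 TATAAA and 1 CCAAT match, and this Lipc window 3 CCAAT matches. A second Lipc start site has a window at chr9:70934759-70935058, not printed, with 1 GATAAG, 1 CCAAT and 2 AGGTCA matches, and the Lipc window shown is that of the upstream start. No matched base belonged to more than 1 of these matches (0 bases in overlapping matches). Among 32544 promoter windows, 13.6% hold TATAAA, 7.32% GATAAG and 37.4% CCAAT on either strand. The LXR element in its strict form, AGGTCA in direct repeat with 4 bases between, was in 0.0154% of all windows and in none of the 9 windows of these genes. A match is a description of letters, and the lack of one says nothing about binding.

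Between the HFD and chow libraries, 3 of the 10 genes were at least 1.5-fold higher on the high-fat diet, Pltp, Soat2 and Lipc, and 0 were that much lower. Over all 13153 genes 10.4% reached that mark upward and 7.72% downward. By the stricter rule only Pltp was 2-fold higher and 0 genes 2-fold lower, against 3.47% and 2.27% of all genes. The remaining 7 genes lay within 1.30-fold of chow, and the median log2 ratio of the 10 was -0.01, beside 0.02 over all genes. In the HFD library 3 of the 10 genes had their highest level of the 3 libraries and 4 their lowest. The shares of all genes so placed were not counted.

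Between the HFD+DfCS-Ib and HFD libraries, both of which come from the high-fat diet, 1 of the 10 genes, Scarb1, was at least 1.5-fold higher with DfCS-Ib and 1, Pltp, at least 1.5-fold lower, against 7.62% and 7.16% of all genes. At 2-fold, 0 were higher and 0 lower, against 2.46% and 2.02% of all genes. The median log2 ratio was 0.08, beside -0.01 over all genes. Between the HFD+DfCS-Ib and chow libraries, 1 gene, Lipc, was at least 1.5-fold higher and 0 were lower, against 5.69% and 3.06% of all genes, and 0 reached 2-fold in either direction, against 1.62% higher and 0.433% lower. There the median log2 ratio was 0.23, beside 0.00 over all genes. The 3 comparisons share libraries 2 by 2, so a level that is high in 1 library enters 2 of them.

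**Figure D1:**
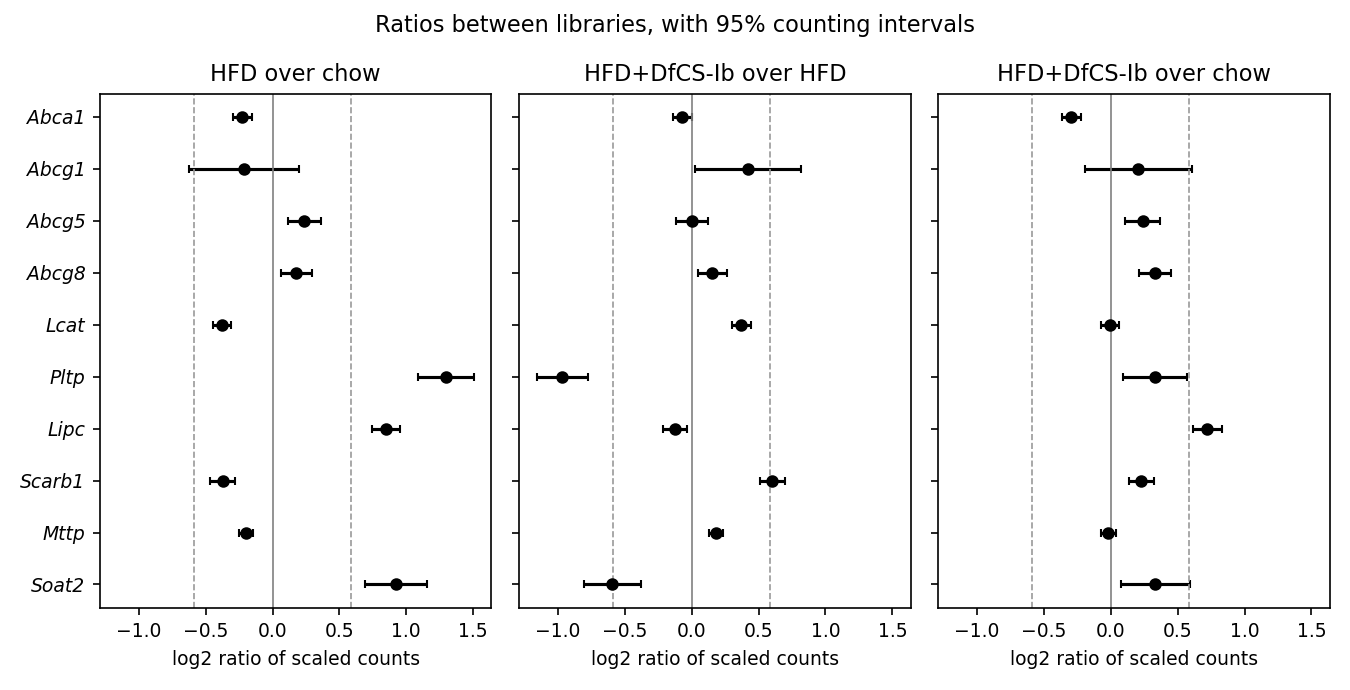
Ratio of scaled counts between libraries for each gene (log2 scale, horizontal axis) in the 3 comparisons, HFD over chow, HFD+DfCS-Ib over HFD and HFD+DfCS-Ib over chow; bars are 95% counting intervals and dashed lines mark 1.5-fold. Pltp, Soat2 and Lipc lie to the right of the dashed line for HFD over chow, and Lipc alone does so for HFD+DfCS-Ib over chow; Soat2 and Scarb1 stand on the lines for HFD+DfCS-Ib over HFD.

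Pltp, which lies on chromosome 2, 164839518 to 164857708 of mm10, on the minus strand, showed the widest spread of the 10 genes. It had 327 counts (30.5 CPM) in the HFD+DfCS-Ib library, 766 (59.5 CPM) in the HFD library and 261 (24.3 CPM) in the chow library. The HFD library stood above both others, whose counting intervals, 27.3 to 34.0 CPM for HFD+DfCS-Ib and 21.4 to 27.4 CPM for chow, just met. Pltp was 2.45-fold (2.13 to 2.84) higher in HFD than in chow, and 98.2% of all genes had a smaller ratio there. It was 1.95-fold (1.71 to 2.23) lower in HFD+DfCS-Ib than in HFD, with 2.36% of all genes below it, and 1.26-fold (1.06 to 1.48) higher in HFD+DfCS-Ib than in chow. The log2 ratio of HFD+DfCS-Ib over HFD, -0.94, passed 2-fold without TMM factors, at -1.04, and with the deposited RPKM.

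The 3' end of Pltp overlaps the gene of the lysosomal carboxypeptidase Ctsa, on the opposite strand, over 1515 bases, 495 of them exonic in both genes by GENCODE M21. The strand setting of the authors' counting is not given in the sources used here, so reads of that stretch may have been shared or lost. Ctsa had 1242, 1633 and 1216 counts in the HFD+DfCS-Ib, HFD and chow libraries, and its log2 ratios were 0.17 for HFD over chow and -0.13 for HFD+DfCS-Ib over HFD. PLTP is made by adipose tissue and macrophages as well as liver. Of the 4 adipocyte markers Adipoq and Plin1 had 0, 1 and 0 counts each and Lep 0 in all; Cfd, which encodes complement factor D, had 3, 77 and 1, and the list summed to 0.280, 6.14 and 0.0929 CPM. All 14 macrophage and Kupffer cell markers that matched were measured and summed to 1094 CPM in HFD+DfCS-Ib, 622 in HFD and 515 in chow, an order that Pltp did not follow. Their part in the Pltp result was not tested.

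Soat2 (chromosome 15, 102150414 to 102163436, plus strand) had 281 counts (26.2 CPM) in the HFD+DfCS-Ib library, 508 (39.5 CPM) in the HFD library and 224 (20.8 CPM) in the chow library. Again the HFD library was the high one, and the intervals of the other libraries, 23.2 to 29.4 CPM for HFD+DfCS-Ib and 18.2 to 23.7 CPM for chow, overlapped. The gene was 1.90-fold (1.62 to 2.23) higher in HFD than in chow and 1.51-fold (1.30 to 1.75) lower in HFD+DfCS-Ib than in HFD. On the CPM plus 1 scale the second value was -0.57, just short of the 1.5-fold mark at 0.585, and it passed the mark without TMM factors, with RPKM and without the 50 most abundant genes. Against chow, HFD+DfCS-Ib was 1.26-fold (1.05 to 1.51) higher.

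Soat1, which encodes the enzyme with the same reaction in macrophages and most other cells, was far lower per length. Soat2 exceeded Soat1 in RPKM, the deposited value per gene length, by 9.38-fold (7.11 to 12.5) in HFD+DfCS-Ib, 19.1-fold (14.5 to 25.6) in HFD and 12.4-fold (8.76 to 18.0) in chow. Only the HFD+DfCS-Ib and HFD intervals of this ratio did not overlap. Soat1 itself had 63, 56 and 38 counts in the HFD+DfCS-Ib, HFD and chow libraries. Its CPM, 5.87, 4.35 and 3.53, had the order of the macrophage marker sum given above. Counting error leaves the place of HFD in that order open. HFD over chow was 1.23 (0.802 to 1.91) and HFD+DfCS-Ib over HFD 1.35 (0.926 to 1.97), while HFD+DfCS-Ib over chow was 1.66 (1.09 to 2.56). The part of macrophages in the Soat1 level was not tested.

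Lipc lies on chromosome 9, 70798128 to 70952221, on the minus strand. It had 1823 counts (169.9 CPM) in HFD+DfCS-Ib, 2383 (185 CPM) in HFD and 1108 (103 CPM) in chow. Both high-fat libraries were above chow, and their intervals, 162 to 178 CPM for HFD+DfCS-Ib and 178 to 193 CPM for HFD, just met. Lipc was 1.80-fold (1.67 to 1.93) higher in HFD than in chow and 1.65-fold (1.53 to 1.78) higher in HFD+DfCS-Ib than in chow, while HFD+DfCS-Ib over HFD was 0.918-fold (0.863 to 0.976). Of all genes, 5.15% had a larger ratio of HFD over chow and 3.75% a larger ratio of HFD+DfCS-Ib over chow. The antisense gene model Gm3436 lies within its span and had at most 50 counts, and Gm32017, also antisense, overlaps it over 38076 bases and runs past its start, with at most 2 counts.

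Of the other vascular lipases, Lipg differed from Lipc in order. Lipg, whose product endothelial lipase acts on HDL phospholipid, had 397 counts (37.0 CPM) in HFD+DfCS-Ib, 129 (10.02 CPM) in HFD and 219 (20.4 CPM) in chow, lowest where Lipc was highest. It was 3.69-fold (3.02 to 4.54) higher in HFD+DfCS-Ib than in HFD, and its ratio of HFD over chow was 0.493 (0.393 to 0.615). Per length Lipc therefore exceeded Lipg by 6.95-fold (6.23 to 7.77) in HFD+DfCS-Ib, 28.0-fold (23.4 to 33.7) in HFD and 7.66-fold (6.62 to 8.90) in chow. Lpl, the lipoprotein lipase gene, had 309, 340 and 216 counts in the same libraries, or 28.8, 26.4 and 20.1 CPM, above chow in both high-fat libraries like Lipc. Lipc exceeded it by 8.79-fold (7.79 to 9.95) in HFD+DfCS-Ib, 10.4-fold (9.32 to 11.7) in HFD and 7.64-fold (6.60 to 8.89) in chow. The 10 endothelial markers summed to 524 CPM in HFD+DfCS-Ib, 446 in HFD and 460 in chow; the median log2 ratio was -0.09 for HFD over chow and 0.19 for HFD+DfCS-Ib over HFD. Of the 10, Lyve1 alone, with 259, 128 and 247 counts, was at least 1.5-fold lower in HFD than in chow, against 7.72% of all genes. A ratio above 1 was seen in 4 of the 10 markers, against 51.9% of all genes, with Clec4g at 1.29-fold (1.15 to 1.45). Their part in the Lipg values was not tested.

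**Figure D2:**
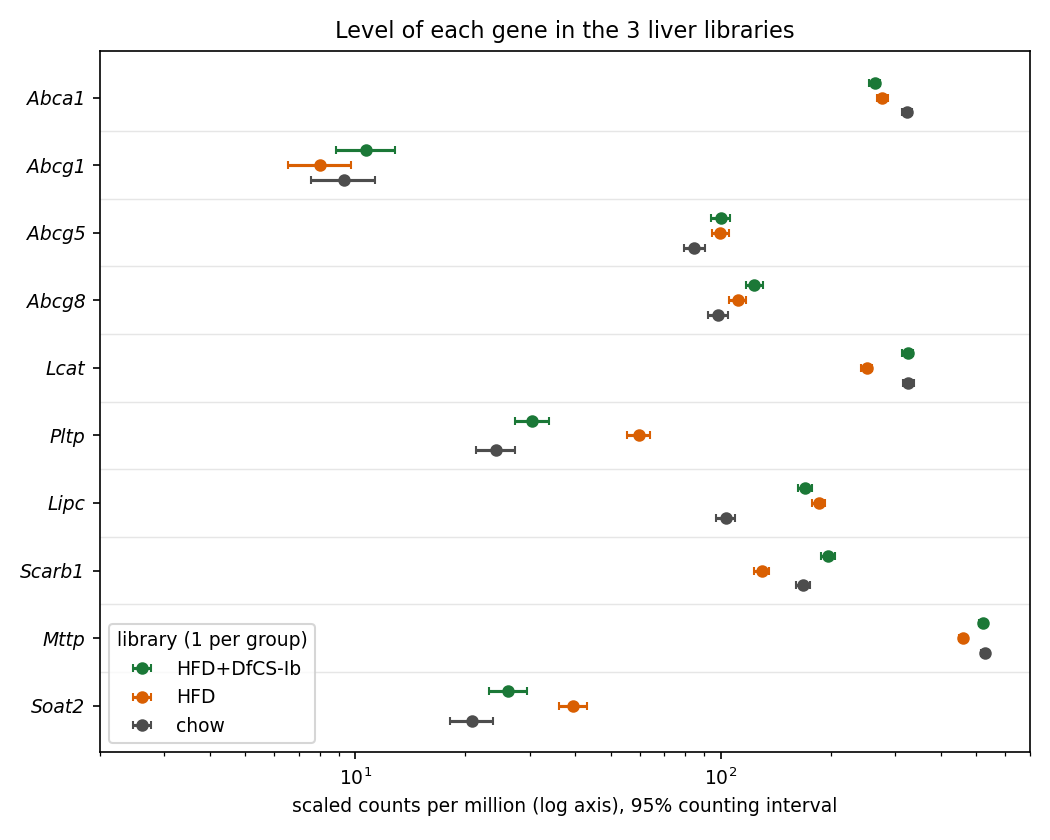
Level of each of the 10 genes in the HFD+DfCS-Ib, HFD and chow libraries in scaled CPM (log axis), with 95% counting intervals; 1 point is 1 library. Pltp and Soat2 stand higher in HFD than in both other libraries, Lipc is higher in both high-fat libraries than in chow, and Scarb1 and Lcat are lowest in HFD.

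Scarb1 (chromosome 5, 125277087 to 125341111, minus strand) had its lowest level in the HFD library and its highest with DfCS-Ib. It had 2110 counts (197 CPM) in HFD+DfCS-Ib, 1666 (129 CPM) in HFD and 1805 (168 CPM) in chow, with no overlap among the 3 counting intervals. HFD+DfCS-Ib was 1.52-fold (1.42 to 1.62) higher than HFD and 1.17-fold (1.10 to 1.25) higher than chow, and the ratio of HFD over chow was 0.772 (0.722 to 0.825). The first of these stood at the 1.5-fold mark: its log2 ratio, 0.60, was 0.50 without TMM factors and 0.49 with RPKM, below 0.585. The antisense model Gm32701 within the gene had 51, 68 and 71 counts in HFD+DfCS-Ib, HFD and chow. Pdzk1, the scaffold that keeps SR-BI at the hepatocyte surface, was named after its values were seen. It had 73.1 CPM in HFD+DfCS-Ib, 102 in HFD and 53.8 in chow, with the HFD library highest where Scarb1 was lowest.

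Lcat (chromosome 8, 105939551 to 105943402, minus strand) was also lowest in the HFD library. It had 3477 counts (324 CPM) in HFD+DfCS-Ib, 3226 (251 CPM) in HFD and 3506 (326 CPM) in chow. The HFD+DfCS-Ib and chow libraries differed by less than counting error, at 0.995-fold (0.949 to 1.04), whereas HFD+DfCS-Ib was 1.29-fold (1.23 to 1.36) higher than HFD and HFD over chow was 0.769 (0.733 to 0.807). Neither reached the 1.5-fold mark, and 16.2% of all genes lay lower than Lcat for HFD over chow. Per length Lcat was the most abundant of the 10 genes in each library, at 233 RPKM in HFD+DfCS-Ib, 193 in HFD and 233 in chow.

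Mttp (chromosome 3, 138089853 to 138143388, minus strand) was close to level. It had 5587 counts (521 CPM) in HFD+DfCS-Ib, 5907 (459 CPM) in HFD and 5672 (527 CPM) in chow, again with the HFD library lowest. HFD+DfCS-Ib was 1.13-fold (1.09 to 1.18) higher than HFD, HFD over chow was 0.871 (0.840 to 0.903), and HFD+DfCS-Ib over chow was 0.988 (0.952 to 1.03). P4hb, protein disulfide isomerase, is the small subunit of the MTTP complex and also works on its own. Per length Mttp stood at 0.250 (0.242 to 0.258) of P4hb in HFD+DfCS-Ib, 0.192 (0.186 to 0.198) in HFD and 0.252 (0.244 to 0.260) in chow, so this ratio was lowest in the HFD library. The hepatocyte markers, 11 of 12 measured, summed to 131991 CPM in HFD+DfCS-Ib, 118183 in HFD and 145556 in chow. Most of each sum was Alb, at 93946, 85030 and 112771 CPM, so the order of the sum is chiefly that of Alb. Lcat and Mttp had the same order in CPM, but counting error leaves their order between HFD+DfCS-Ib and chow open. The HFD library was lowest for both, as for Scarb1. In HFD over chow 4 of the 11 markers had a ratio above 1, against 51.9% of all genes, and the median log2 ratio was -0.27. Tat, Cps1 and Hnf4a were at least 1.5-fold lower and Ttr higher, against 7.72% and 10.4% of all genes. Their part in the Lcat, Mttp and Scarb1 values was not tested.

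The biliary pair Abcg5 and Abcg8 differed little. Abcg5 (chromosome 17, 84658234 to 84682923, minus strand) had 1071 counts (99.8 CPM) in HFD+DfCS-Ib, 1283 (99.7 CPM) in HFD and 911 (84.7 CPM) in chow. Abcg8 (chromosome 17, 84676302 to 84700333, plus strand) had 1325 counts (124 CPM) in HFD+DfCS-Ib, 1429 (111 CPM) in HFD and 1057 (98.2 CPM) in chow. Both were lowest in chow, and no ratio reached 1.5-fold: HFD over chow was 1.18 (1.08 to 1.28) for Abcg5 and 1.13 (1.04 to 1.23) for Abcg8. For HFD+DfCS-Ib over HFD the values were 1.0 (0.922 to 1.09) and 1.11 (1.03 to 1.20), and the log2 ratio of Abcg5, 0.00, turned below 0 without TMM factors, with RPKM and without the 50 most abundant genes.

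Per length Abcg5 exceeded Abcg8 by 1.34-fold (1.24 to 1.46) in HFD+DfCS-Ib, 1.49-fold (1.38 to 1.61) in HFD and 1.43-fold (1.31 to 1.57) in chow, with intervals that overlapped throughout. The deposited Abcg8 model starts inside Abcg5, in the window of the second Abcg8 start site and not at the shared promoter shown above. The gene models therefore overlap over 6622 bases on opposite strands, and 82 of these bases are exonic in both by GENCODE M21. Reads of that stretch cannot be assigned without strand.

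Abca1 (chromosome 4, 53030789 to 53159988, minus strand) had 2826 counts (263 CPM) in HFD+DfCS-Ib, 3558 (277 CPM) in HFD and 3477 (323 CPM) in chow. Both high-fat libraries were below chow, by 1.23-fold (1.17 to 1.29) for HFD+DfCS-Ib and 1.17-fold (1.11 to 1.22) for HFD, and the ratio of HFD+DfCS-Ib over HFD was 0.953 (0.906 to 1.0). Abcg1 (chromosome 17, 31057694 to 31117984, plus strand) was the least abundant of the 10 genes per length, at 1.80 RPKM in HFD+DfCS-Ib, 1.44 in HFD and 1.56 in chow. Its 115, 103 and 100 counts give 10.7, 8.00 and 9.29 CPM in the HFD+DfCS-Ib, HFD and chow libraries, with intervals that overlapped in every pair of libraries. HFD+DfCS-Ib over HFD was 1.34 (1.02 to 1.76), and HFD over chow was 0.861 (0.648 to 1.15).

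Abcg1 is strongly expressed by macrophages. The macrophage markers were above HFD with DfCS-Ib in 14 of 14 cases, against 48.5% of all genes. Of these markers 11 were higher by at least 1.5-fold, against 7.62% of all genes. For HFD over chow, 12 of the 14 had a ratio above 1 (median log2 ratio 0.24), against 51.9% of all genes, while Abcg1 stood at 0.861 (0.648 to 1.15). The part of macrophages in the Abcg1 level was not tested. Per length Abca1 exceeded Abcg1 by 13.6-fold (11.3 to 16.5) in HFD+DfCS-Ib, 19.1-fold (15.7 to 23.5) in HFD and 19.2-fold (15.8 to 23.7) in chow, and the 3 intervals overlapped.

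**Figure D3:**
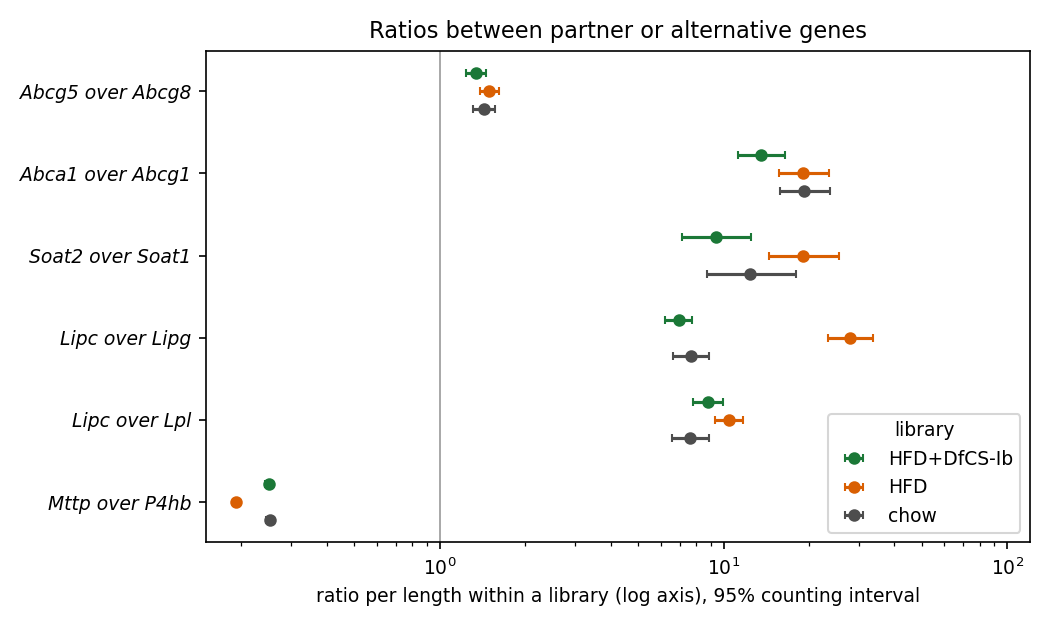
Ratio of 2 genes per length within each library (log axis) with 95% counting intervals, for partners in a complex or alternatives in a step, in the HFD+DfCS-Ib, HFD and chow libraries. The ratio of Lipc over Lipg was 28.0 in HFD against 6.95 in HFD+DfCS-Ib and 7.66 in chow, whereas that of Abcg5 over Abcg8 lay between 1.34 and 1.49.

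The order of the genes per length was much the same in the 3 libraries. Lcat was first, with Mttp next at 115 RPKM in HFD+DfCS-Ib, 108 in HFD and 116 in chow, and Abcg1 was last in each, with Soat2 above it at 11.2, 18.1 and 8.88 RPKM. In the middle, Scarb1 stood at 57.4 RPKM in HFD+DfCS-Ib, 40.5 in HFD and 48.9 in chow, and Lipc at 61.2, 71.4 and 37.0. Lipc ranked above Scarb1 in both high-fat libraries and below it in chow. Pltp, at 16.2 RPKM in HFD+DfCS-Ib, 33.8 in HFD and 12.8 in chow, ranked 8 of 10 in HFD+DfCS-Ib and chow but 6 in HFD, where it passed Abcg8 and Abca1. Together the 10 genes took 18942, 20829 and 18121 counts in the HFD+DfCS-Ib, HFD and chow libraries, which is 1766, 1619 and 1684 CPM.

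**Figure D4:**
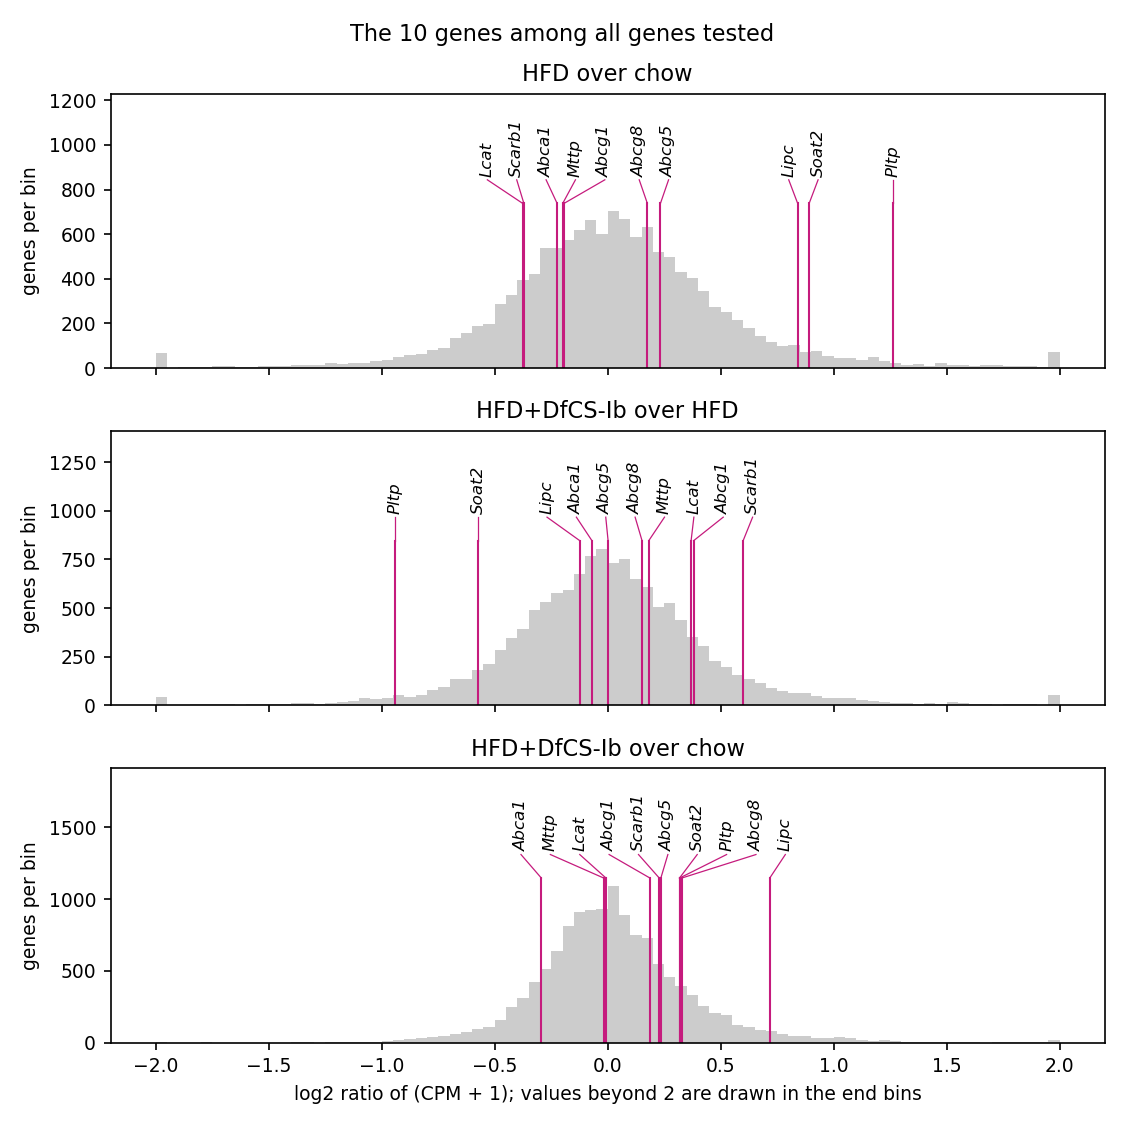
Distribution of log2 ratios of CPM plus 1 over the 13153 genes tested (grey bars, genes per bin) in the 3 comparisons, with the 10 genes as labelled lines. For HFD over chow Pltp lay at 1.26, with 1.81% of all genes above it, and Lcat at -0.38; for HFD+DfCS-Ib over chow 9 of the 10 genes lay between -0.29 and 0.33.

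For the 4 genes that reached 1.5-fold in some comparison, the genes nearest in both HFD over chow and HFD+DfCS-Ib over HFD were looked for among 7712 others with a mean of at least 10 CPM; likeness was the larger of the 2 differences in log2 ratio, over 3 libraries. The nearest to Pltp were 0610007P14Rik, Egln3 and Cyp4f14, within 0.065, and 11 genes lay within 0.1. For Soat2 they were Tfpi2, Psme1 and Actn1, within 0.024, with 42 genes within 0.1. Those of Scarb1 were Insig2, Col4a2 and Fnip1, within 0.013, with 54 genes within 0.1, and those of Lipc were Immp2l, Herc6 and Sdr9c7, within 0.06, with 9 genes within 0.1.

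Other genes of sterol handling were described by list. Of 34 measured genes of sterol transport, receptors and trafficking, 9 were at least 1.5-fold higher in HFD than in chow and 5 lower (Abca5, Abca6, Abcb4, Nceh1 and Cyp7a1), against 10.4% and 7.72% of all genes, with a median log2 ratio of 0.23. The canalicular transporters beside ABCG5 and ABCG8 differed from that pair and from each other. Abcb11, the bile salt export pump gene, had 589 CPM in HFD+DfCS-Ib, 936 in HFD and 419 in chow, 2.24-fold (2.16 to 2.31) higher in HFD than in chow. Abcb4, whose product flips phosphatidylcholine into bile, had 595 CPM in HFD+DfCS-Ib, 293 in HFD and 506 in chow, 2.03-fold (1.95 to 2.11) higher in HFD+DfCS-Ib than in HFD. Thus the HFD library was highest for Abcb11 and lowest for Abcb4.

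Nceh1, a hydrolase gene that acts on cholesteryl ester and so opposes the reaction of SOAT2, had 89.4 CPM in HFD+DfCS-Ib, 33.96 in HFD and 71.7 in chow, lowest in the library where Soat2 was highest. It was 2.63-fold (2.35 to 2.95) higher in HFD+DfCS-Ib than in HFD and 2.11-fold (1.88 to 2.38) lower in HFD than in chow. Among the other members of this list at least 2-fold apart, Stard4, a cytosolic sterol carrier, had 48.5, 170.2 and 31.2 CPM in HFD+DfCS-Ib, HFD and chow. Abca8a was 2.66-fold (2.41 to 2.94) higher in HFD than in chow, and Cyp7a1, which starts bile acid synthesis, 2.80-fold (2.53 to 3.12) lower. On the CPM plus 1 scale Abca8a alone of the 34 was at least 2-fold higher in HFD+DfCS-Ib than in chow, at 2.08-fold (1.87 to 2.32) by scaled counts; Abcg3, with 49 counts in HFD+DfCS-Ib and 23 in chow, was 2.14-fold (1.28 to 3.67) higher by scaled counts and had a log2 ratio of 0.83 on that scale. In HFD+DfCS-Ib over HFD, 5 of the 34 were at least 1.5-fold higher (Abca6, Abcb4, Npc1, Nceh1 and Cyp7a1) and 5 lower (Abcb11, Vldlr, Stard4 and Gramd1c among them), with a median of -0.15. Vldlr rested on 11 counts in HFD+DfCS-Ib and 30 in HFD, a ratio of 0.440 (0.199 to 0.903). In HFD+DfCS-Ib over chow 5 were higher (Abca8a, Abcg3, Soat1 and Stard4 among them) and 0 lower, with a median of 0.21. Of all genes, 7.62% were higher and 7.16% lower for HFD+DfCS-Ib over HFD, and 5.69% and 3.06% for HFD+DfCS-Ib over chow. Members of the lists that were less than 2-fold apart are named where few genes of a list reached 1.5-fold, after their values were seen.

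Of 29 measured genes of lipoprotein assembly, lipases and their regulators, 5 were at least 1.5-fold higher in HFD than in chow (Apoc1, Apoc3, Sort1 and Lmf1 among them) and 2 lower, Apoa4 and Lipg (median 0.27). In HFD+DfCS-Ib over HFD, 2 were higher, Apoa4 and Lipg, and 2 lower, Sort1 among them (median -0.16). In HFD+DfCS-Ib over chow Lipg alone was higher and Apoa4 alone lower (median 0.09). Of all genes, 10.4% were higher and 7.72% lower for HFD over chow, and 7.62% and 7.16% for HFD+DfCS-Ib over HFD. For HFD+DfCS-Ib over chow the shares were 5.69% and 3.06%. Apom and Angptl4 were listed at 0 in every library, which does not show that the liver lacks them, and Angptl8 had no match. Apoa4, an apolipoprotein gene of triglyceride-rich particles and HDL, was lowest in the HFD library, with 597 CPM in HFD+DfCS-Ib, 283 in HFD and 944 in chow.

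Abca1, Abcg1, Abcg5, Abcg8 and Pltp share the receptor LXR with lipogenic genes. The receptor genes were level: Nr1h3, for LXR alpha, had 84.0 CPM in HFD+DfCS-Ib, 86.6 in HFD and 81.3 in chow, and Nr1h2, for LXR beta, 33.5, 34.0 and 32.9. A list of 17 genes held the LXR genes, LXR targets and other receptors and cofactors of the same network (Rxra, Ncor1, Nr0b2, Nr5a2 and Hnf4a, the last also a hepatocyte marker). Of the 17, 4 were at least 1.5-fold higher in HFD than in chow (Srebf1, Scd1, Fasn and Abcg2) and 3 lower, Mylip, Cyp7a1 and Hnf4a (median 0.05). Cyp7a1 was higher in HFD+DfCS-Ib than in HFD, and Srebf1, Scd1 and Fasn were lower (median 0.12). Against chow, 2 were higher in HFD+DfCS-Ib, Srebf1 and Arl4c, and Scd1 was lower (median 0.05). Arl4c rested on 37 counts in HFD+DfCS-Ib and 19 in chow, at 1.95-fold (1.09 to 3.60). Of all genes, 10.4% were higher and 7.72% lower for HFD over chow, and 7.62% and 7.16% for HFD+DfCS-Ib over HFD. For HFD+DfCS-Ib over chow the shares were 5.69% and 3.06%. The lists share genes: Lpl, Cyp7a1, Stard4 and Abcg2, among others, each stand in more than 1. Srebf1, the gene of the lipogenic factor SREBP-1, had a log2 ratio of 3.47 for HFD over chow and -2.86 for HFD+DfCS-Ib over HFD, and Fasn and Scd1, lipogenic enzyme genes, had 2.96 and 2.42, then -2.87 and -3.16. For the 4 ABC transporter genes the same ratios lay between -0.22 and 0.23 and between -0.07 and 0.38, and for Pltp they were 1.26 and -0.94. The activity of LXR was not measured, and its part in any of these values was not tested.

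The SREBP-2 axis, which governs sterol synthesis and uptake, was at least 1.5-fold higher in 10 of 12 genes in HFD than in chow (median 2.04) and lower by as much in 10 of 12 in HFD+DfCS-Ib than in HFD (median -1.82), where 1, Insig2, was higher. In HFD+DfCS-Ib over chow 4 were higher, Insig1, Sqle and Stard4 among them, and 0 lower (median 0.17). Of all genes, 10.4% were higher and 7.72% lower for HFD over chow, and 7.62% and 7.16% for HFD+DfCS-Ib over HFD. For HFD+DfCS-Ib over chow the shares were 5.69% and 3.06%. Insig1, an SREBP retention factor, had 90.1 CPM in HFD+DfCS-Ib, 378 in HFD and 45.9 in chow; Sqle, Hmgcs1, Lss and Idi1, enzymes of sterol synthesis, were lower in HFD+DfCS-Ib than in HFD by 8.34-fold (6.86 to 10.2), 7.76-fold (7.21 to 8.37), 3.77-fold (3.22 to 4.44) and 7.92-fold (4.72 to 14.2). None of the 10 genes of efflux and remodelling had a difference of this size in these libraries.

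**Figure D5:**
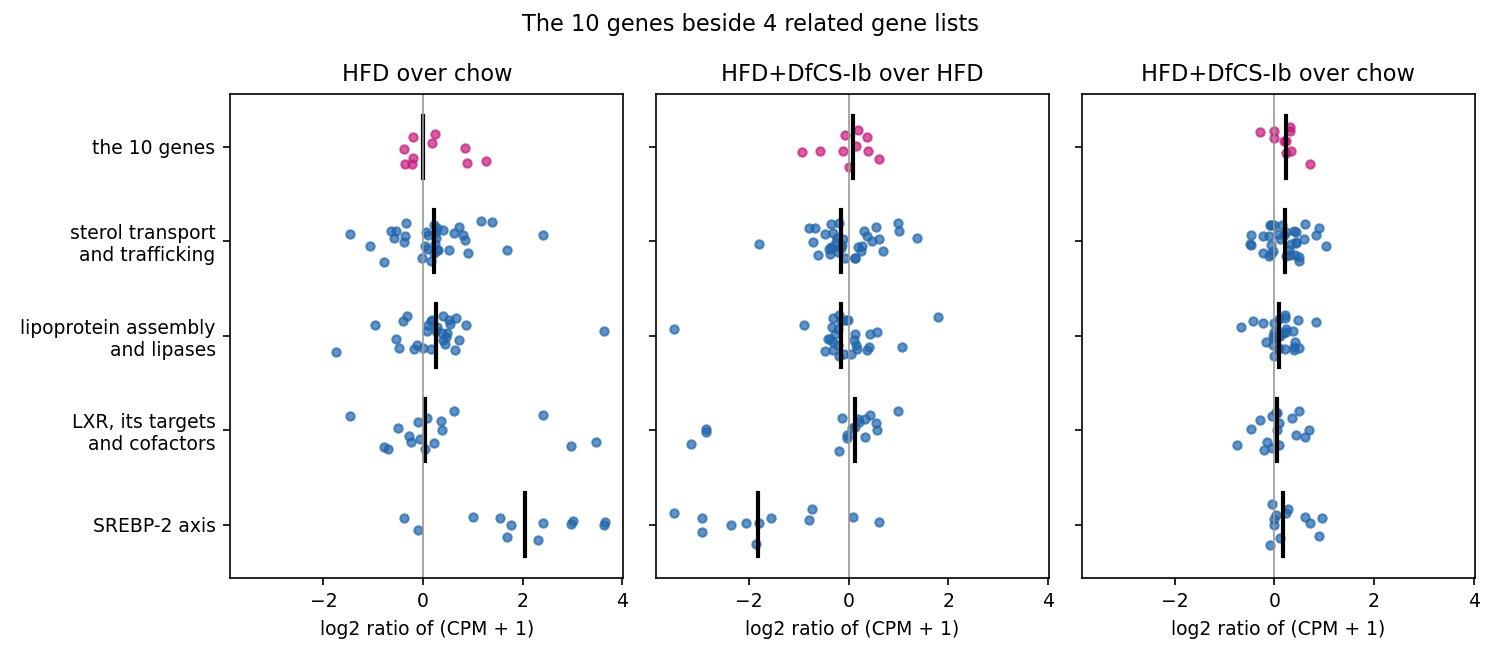
Log2 ratios of CPM plus 1 for the 10 genes (top row) and for the measured genes of 4 related lists in the 3 comparisons; 1 point is 1 gene, and black bars are medians. The 10 genes centre near 0 for HFD over chow (median -0.01) and HFD+DfCS-Ib over HFD (0.08), while the SREBP-2 axis centres at 2.04 and -1.82.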

How the data were processed

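RNA was sequenced from 3 liver libraries, 1 per group, so no p-value was computed. The authors deposited raw read counts and RPKM for 41799 genes per library, per the file headers, with gene positions, strands and lengths. TopHat2 and the build mm10 are named for alignment, per the submitters' processing notes. Not given in the sources used here: which tool counted reads, whether it used strand, how it treated reads that align to several places, and which gene annotation it read. The RPKM given by the authors equals the count scaled by gene length and the file's total, with a deviation of at most 0.000506% above 100 counts. Deposited counts were scaled with TMM factors of 0.978 (HFD+DfCS-Ib), 1.048 (HFD) and 0.976 (chow) in edgeR 4.0.16 (R 4.3.3). Log2 ratios used CPM plus 1 over the 13153 genes that averaged 1 CPM or more. Intervals are exact binomial (Clopper-Pearson) at 95%; reads carry no molecular identifiers named in the sources used here, so they cover counting error only. A count of 0 was taken to allow up to 3 counts, a set floor rather than such an interval.

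All 10 genes are named; list genes are named where at least 2-fold apart, up to 6 per list and comparison; the genes nearest in pattern are 3 per gene. Some genes the rule names are not reported here. The 10 genes and the lists were chosen with earlier results of these data known. Alternatives were CPM without TMM factors, DESeq2 1.42.0 size factors, RPKM plus 1, library sizes without the 50 most abundant genes, pseudocounts of 0.5 and 5 CPM, no filter, and a mean of at least 10 CPM. Adding 1 to RPKM shrinks the ratios of genes with low RPKM. The ratio code was tested on simulated data. Motifs were searched on both strands of RefSeq promoters.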

Additional observations from a re-analysis of the deposited data

How the results depend on the processing

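Of 237 values of single genes under the alternatives, 219 stayed within the counting interval, 18 moved past it and 0 genes past 1.5-fold changed sign. The counts for HFD over chow and HFD+DfCS-Ib over chow stayed within 1.5 times of those reported under every alternative. For HFD+DfCS-Ib over HFD, the count of genes at least 1.5-fold higher was 0 in place of 1 without TMM factors, with the deposited RPKM, without the 50 most abundant genes and with a pseudocount of 5, since Scarb1 fell short. The count at least 1.5-fold lower was 2 in place of 1 without TMM factors, with RPKM and without the 50 most abundant genes, since Soat2 joined Pltp. The count at least 2-fold lower was 1 in place of 0 without TMM factors and with RPKM. The median of the genes for HFD over chow was 0.10 with RPKM and 0.18 at a mean of at least 10 CPM, where Abcg1 dropped out, in place of -0.01.

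Scaling without TMM factors moved the median log2 ratio of all genes by 0.092 for HFD over chow and by -0.088 for HFD+DfCS-Ib over HFD. Of 72 counts for the related lists, 9 moved by over 1.5 times. In the sterol transport list these were genes lower in HFD than in chow (3 in place of 5) and higher in HFD+DfCS-Ib than in HFD (3 in place of 5), both without TMM factors and with RPKM, and higher in HFD+DfCS-Ib than in chow (2 in place of 5 with RPKM). In the lipoprotein list, genes higher in HFD than in chow numbered 8 in place of 5 without TMM factors. In the SREBP-2 axis, those higher in HFD+DfCS-Ib than in HFD numbered 0 in place of 1 without TMM factors and with RPKM, and in the LXR list those higher in HFD+DfCS-Ib than in chow 0 in place of 2 with RPKM. No paired analysis was possible because each group has 1 library and the labels give no replicate numbers, and no library was left out. Depth limits Abcg1 most, with 100 to 115 counts per library.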
